A study of Mus musculus with 9 samples.

Results

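Amino acid and monocarboxylate transporters were followed as a gene group in endothelial cells of the mouse heart. The group was formed from gene names alone: it holds every gene of the deposited table whose symbol begins with Slc1a, Slc3a, Slc6a, Slc7a, Slc15a, Slc16a, Slc36a, Slc38a or Slc43a, which gave 58 of 18094 genes. Of these, 56 are members of the transporter families. Slc36a1os and Slc7a6os are other genes, on the strand opposite to the transporter gene whose name they carry with the ending os. A filter on low counts left 52 of the 58 for testing.

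The cells came from BPH/2J mice, an inbred line selected for high blood pressure, aged 22 weeks or 4 weeks, and from 22-week mice of BPN/3J, the normotensive line kept beside it. There were 3 RNA sequencing libraries in each group, and the labels name no drug, transgene or deletion. Cells were pulled from fresh heart tissue with microbeads on a magnetic cell sorter. Each blood pressure state is a single inbred line, so blood pressure and line cannot be told apart, and 4-week BPN/3J cells were not analysed here, so age was compared in BPH/2J alone.

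Hydrophilic nutrients cross the endothelial membrane through solute carriers. Several Slc7 proteins reach the cell surface only when bound to a heavy chain of the Slc3 family, and they exchange one amino acid for another, while the Slc1, Slc6 and Slc38 proteins mostly couple uptake to sodium. Some Slc16 proteins carry lactate, pyruvate and ketone bodies with protons, and other members carry other solutes, among them thyroid hormone and aromatic amino acids. In endothelium these carriers are known for supplying arginine for nitric oxide synthesis and for passing amino acids and thyroid hormone from blood to tissue.

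Depth was even, with 28806840 to 32913813 counted reads per library. Levels are given as CPM, a count scaled to the library total, after scaling by the trimmed mean of M values (TMM), and a gene at 0 could still hold up to 3 counts at the 95% level, or 0.0921 to 0.105 CPM, a limit that covers counting error only. Endothelial markers were abundant in all 3 groups: 14 of them summed to 17603 to 17915 CPM in 22-week BPH/2J, 15442 to 16919 in 4-week BPH/2J and 14845 to 15483 in BPN/3J. Markers of other cells were also present. Cardiomyocyte markers summed to 896 to 1039 CPM in 22-week BPH/2J, 921 to 1075 in 4-week BPH/2J and 1445 to 1694 in BPN/3J, and macrophage and monocyte markers to 308 to 364 CPM in 22-week BPH/2J, 523 to 974 in 4-week BPH/2J and 483 to 801 in BPN/3J. Replicate 1 of 4-week BPH/2J stood apart from its group, with 2.63% of its counts from mitochondrial genes against 1.19% and 1.33% in the other libraries of that group. The mitochondrial share also moved with the line, at 1.91%, 1.45% and 1.59% in 22-week BPH/2J against 2.62%, 2.78% and 2.02% in BPN/3J, and its part in the line differences was not tested. Whether replicates came from different animals is not stated in the labels, so p-values rest on a spread between libraries that could be technical.

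Together the 58 genes took 2978 to 3145 CPM in the 22-week BPH/2J libraries, 2596 to 2951 CPM in the 4-week BPH/2J libraries and 2920 to 3049 CPM in the BPN/3J libraries. Genes can be set beside each other per kilobase of the deposited gene length. Slc43a3, which moves purine nucleobases, averaged 132 CPM per kb over the 9 libraries. Slc6a6, the taurine transporter, averaged 123 CPM per kb, Slc38a2, a sodium-coupled carrier of small neutral amino acids, 78.2, and Slc3a2, the heavy chain of the Slc7 exchangers, 55.2. Slc38a10, Slc38a6 and Slc7a6os followed at 21.9 to 28.1 CPM per kb. At the low end, Slc1a2, the main glutamate transporter of astrocytes, averaged 0.0105 CPM per kb.

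The order at the top differed between groups. In 22-week BPH/2J, Slc6a6 led with 160 ± 6.92 CPM per kb, above Slc43a3 with 123 ± 17.3 (mean ± SD, n = 3 libraries, as for all values given with ±). In 4-week BPH/2J the levels per kb were 122 ± 18.3 for Slc6a6 and 101 ± 20.9 for Slc43a3, a gap smaller than the sum of their SDs. These SDs ignore that both genes were read in the same libraries, in each of which Slc6a6 was the higher per kb. In BPN/3J the order was the other way round, with 87.3 ± 5.31 CPM per kb for Slc6a6 and 171 ± 2.52 for Slc43a3. There the mean of Slc38a2, 108 ± 15.8 CPM per kb, was also above that of Slc6a6, by less than the sum of their SDs. In replicate 1 of BPN/3J Slc6a6 was slightly the higher of these per kb.

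**Figure D1:**
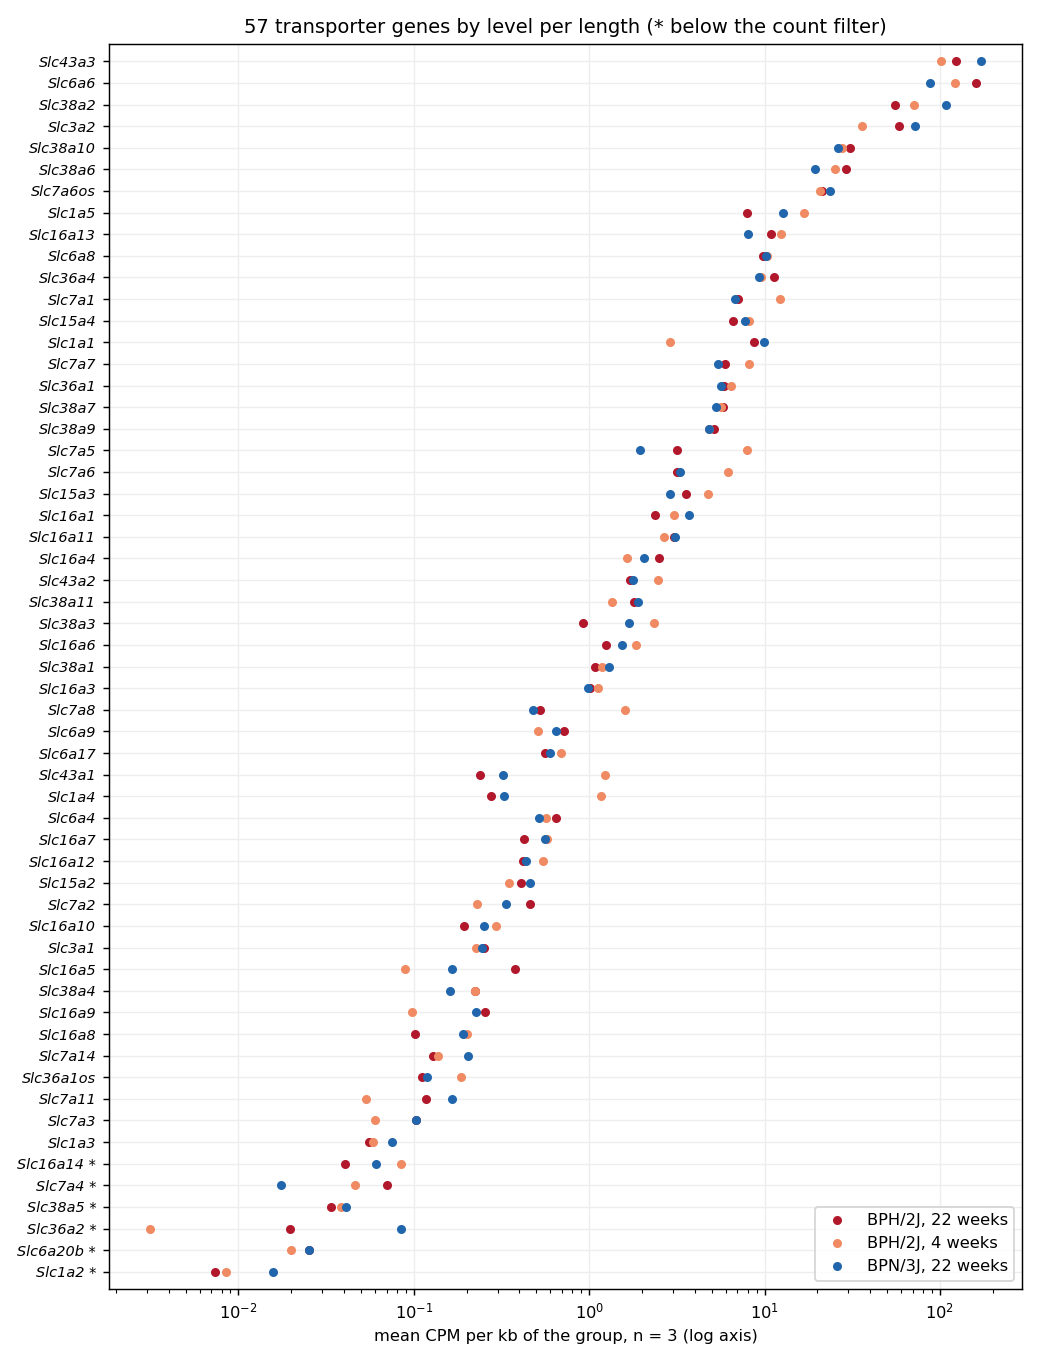
Mean level of 57 of the 58 genes per kilobase of gene length (CPM per kb, log axis, n = 3 libraries per point), with the 22-week BPH/2J, 4-week BPH/2J and 22-week BPN/3J groups in separate colours and genes ordered by their mean over the 9 libraries. Slc43a3, Slc6a6, Slc38a2 and Slc3a2 stand above the rest, and the asterisks mark the 6 genes below the count filter.

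Promoter stretches are shown for 6 genes that were called with age and to whose values the results below return. These genes were picked by hand among those with a RefSeq window, so their matches do not stand for all genes called with age. Each stretch runs from 120 bases before to 30 bases after the RefSeq transcription start in GRCm38.p6, 5′ to 3′ on the strand of the gene. Capitals mark matches to the letters TGATGNAA (the core of the C/EBP-ATF response element bound by ATF4), TGACNNNGC (the core of the antioxidant response element bound by NRF2), CACGTG (the E-box) or TATAAA (the TATA box), searched on both strands. Slc7a11, Slc1a4, Slc43a1, Slc7a1, Slc38a2 and Slc1a1 are given.
Slc7a11, chr3:50443584-50443733, minus strand: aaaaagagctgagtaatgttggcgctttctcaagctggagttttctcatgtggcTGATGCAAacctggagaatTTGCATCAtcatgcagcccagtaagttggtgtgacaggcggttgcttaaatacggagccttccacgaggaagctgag
Slc1a4, chr11:20332684-20332833, minus strand: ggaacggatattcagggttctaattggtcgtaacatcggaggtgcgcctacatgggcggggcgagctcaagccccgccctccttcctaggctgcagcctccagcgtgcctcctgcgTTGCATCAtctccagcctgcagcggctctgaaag
Slc43a1, chr2:84840203-84840352, plus strand: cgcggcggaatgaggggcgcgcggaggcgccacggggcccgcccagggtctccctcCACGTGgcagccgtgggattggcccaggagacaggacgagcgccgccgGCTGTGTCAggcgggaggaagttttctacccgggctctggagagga
Slc7a1, chr5:148399875-148400024, minus strand: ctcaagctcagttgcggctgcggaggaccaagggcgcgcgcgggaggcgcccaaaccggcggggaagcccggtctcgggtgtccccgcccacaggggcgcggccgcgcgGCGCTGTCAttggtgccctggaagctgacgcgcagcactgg
Slc38a2, chr15:96699699-96699848, minus strand: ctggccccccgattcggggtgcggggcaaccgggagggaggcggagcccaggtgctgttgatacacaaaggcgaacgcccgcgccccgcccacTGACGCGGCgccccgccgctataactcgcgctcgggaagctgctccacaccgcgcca
Slc1a1, chr19:28835015-28835164, plus strand: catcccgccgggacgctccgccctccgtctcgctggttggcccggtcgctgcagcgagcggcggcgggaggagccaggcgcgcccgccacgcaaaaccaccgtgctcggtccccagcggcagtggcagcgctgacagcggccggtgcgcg

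In Slc7a11, matches to the C/EBP-ATF core began 66 and 47 bases before the start, on opposite strands. The match in Slc1a4 began 4 bases before the start. The antioxidant core began 16 bases before the start in Slc43a1, 11 in Slc7a1 and 27 in Slc38a2, and the E-box in Slc43a1 began 64 bases before it. The printed stretch of Slc1a1 held no match to any of the letters searched. RefSeq gives Slc7a1 another start, not printed here, with a TATA box match that began 28 bases before it. In the whole windows of 300 bases, which RefSeq gave for 37 of the 52 tested genes, the C/EBP-ATF core was present in 3 genes (Slc1a4, Slc7a7 and Slc7a11), against 4.51% of all 27025 genes with a window. The antioxidant core was present in 9 of the 37 genes, against 14.0% of all genes. The E-box was present in 6 of the 37, against 8.09%, the TATA box in 6, against 15.7%, and ACANNNTGT, the core of the glucocorticoid element, in 4, against 7.9%. Such a match is a description of letters, and binding was not measured.

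The first comparison set 22-week BPH/2J against 22-week BPN/3J, the hypertensive against the normotensive line at one age. In BPH/2J, 8 of the 52 tested transporter genes were higher and 6 were lower at an adjusted p under 0.05 (edgeR quasi-likelihood test, Benjamini-Hochberg adjustment over all 15277 tested genes, as for every adjusted p given here). The 14 called are 26.9% of the 52, below the 38.0% called among all tested genes, of which 19.8% were higher and 18.2% lower. The libraries of the lines did not overlap in 23 of the 52, against 55.7% of all tested genes, and these 23 include the 14 called. The median log2 difference was -0.05 over the transporter genes and 0.02 over all tested genes. Slc16a5 was the single called gene past 2-fold. The second comparison set 22-week against 4-week BPH/2J, so that age changed within the hypertensive line. There, 9 of the 52 genes were higher and 16 were lower at 22 weeks, or 48.1% called, near the 41.0% of all tested genes, of which 19.9% were higher and 21.1% lower. The ages did not overlap in 28 of the 52, against 51.2% of all tested genes, and of the called genes Slc7a2 and Slc15a4 overlapped. Of the called genes, 5 were past 2-fold higher and 6 past 2-fold lower, and the median was -0.08 against 0.01 over all genes. Since both comparisons share the 22-week BPH/2J libraries, their calls are given side by side and not set against each other. Called in both were 9 genes, with 5 in the line comparison alone, 16 in the age comparison alone and 22 in neither.

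**Figure D2:**
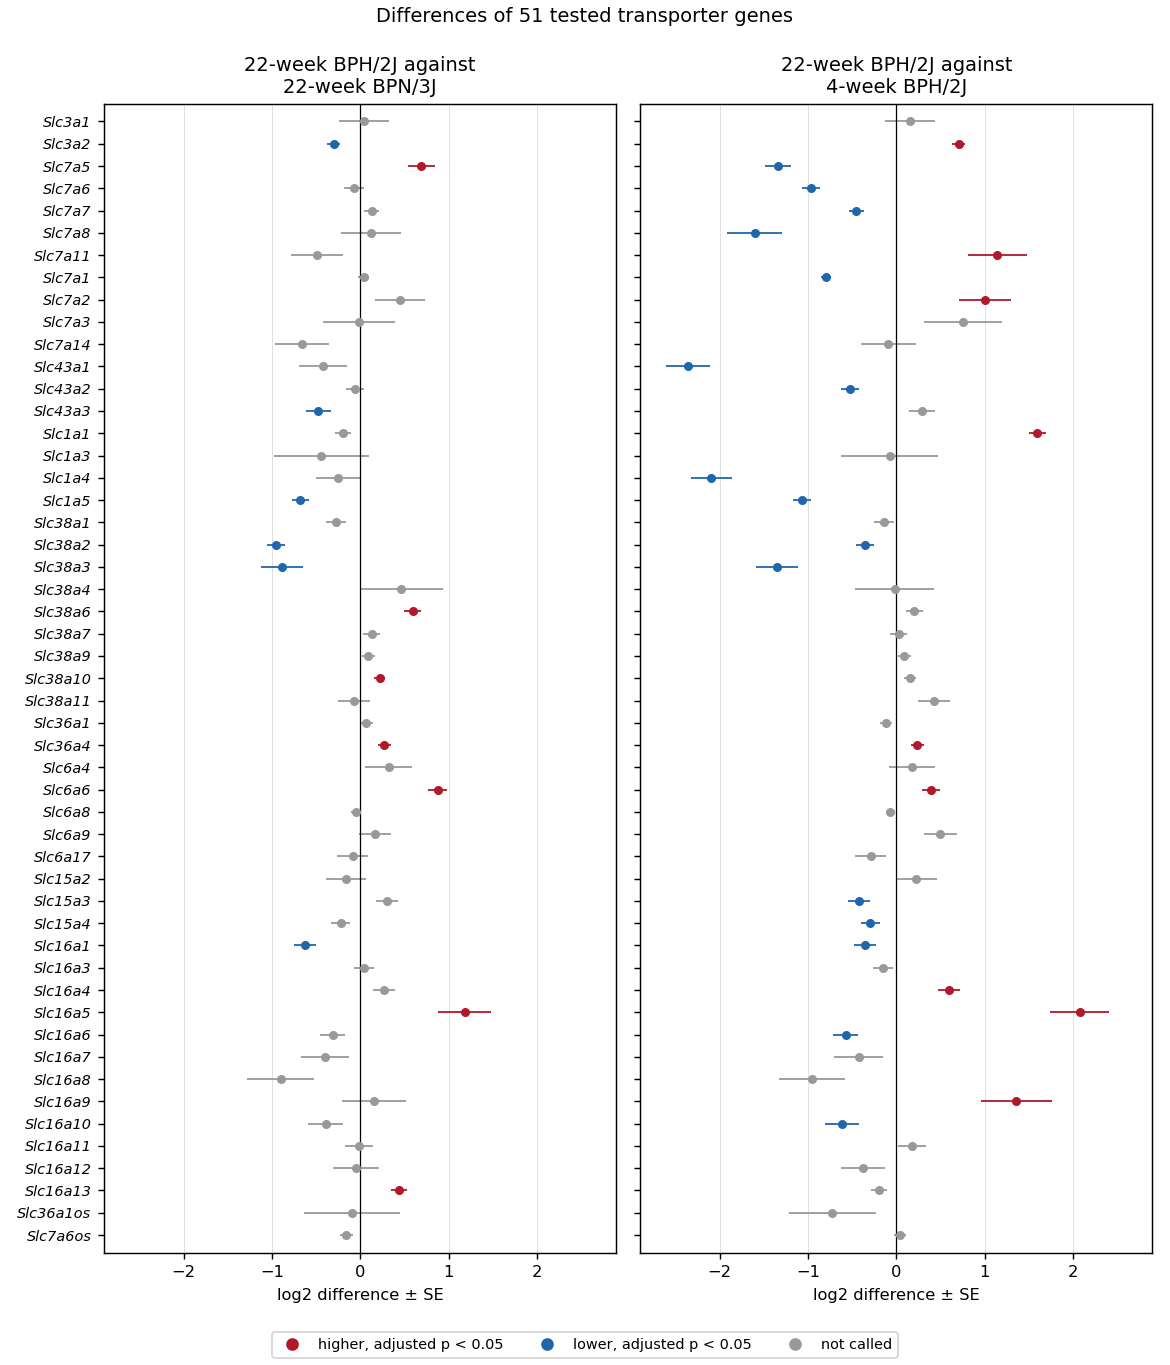
Log2 differences (± SE) of 51 of the 52 tested genes in 22-week BPH/2J against 22-week BPN/3J and against 4-week BPH/2J, with called genes in colour. The called differences of the line comparison lie between -0.95 and 1.18, while those of the age comparison reach from -2.36 to 2.07.

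The CD98 heavy chain and the 5 light chains described here were all called with age. Slc3a2, the heavy chain that takes light chains to the cell surface, stood at 176, 160 and 181 CPM in 22-week BPH/2J, 111, 95.9 and 110 CPM in 4-week BPH/2J and 200, 217 and 218 CPM in BPN/3J. The groups did not overlap, and Slc3a2 was 1.63-fold higher at 22 than at 4 weeks (log2 0.70 ± 0.08 SE, adjusted p = 6.6e-05) but 1.23-fold lower in 22-week BPH/2J than in BPN/3J (log2 -0.30 ± 0.07, adjusted p = 0.0101). Slc7a5, the leucine and thyroid hormone exchanger LAT1, stood at 8.40, 13.4 and 11.4 CPM in 22-week BPH/2J, 27.9, 25.9 and 30.1 CPM in 4-week BPH/2J and 6.31, 6.81 and 7.44 CPM in BPN/3J. Its 3 groups were separate too, in the opposite order to that of its heavy chain. Slc7a5 fell by 1.34 on the log2 scale at 22 weeks against 4 weeks (SE 0.15, adjusted p = 7.8e-05), and it was 1.61-fold higher in 22-week BPH/2J than in BPN/3J (log2 0.69 ± 0.16, adjusted p = 0.00589).

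Other light chains of the same heavy chain were also lower at 22 weeks than at 4 weeks in BPH/2J. Slc7a6, which exchanges cationic for neutral amino acids, stood at 11.7, 10.8 and 12.7 CPM at 22 weeks, against 19.8, 25.0 and 24.1 CPM at 4 weeks, and fell by 0.97 on the log2 scale (SE 0.11, adjusted p = 7.6e-05). Slc7a7, its close relative and the gene mutated in human lysinuric protein intolerance, stood at 12.3, 14.6 and 13.6 CPM at 22 weeks, against 18.1, 18.7 and 18.6 CPM at 4 weeks, a fall of 0.45 (SE 0.08, adjusted p = 0.00187). Slc7a8, the neutral amino acid exchanger LAT2, stood at 1.62, 2.00 and 2.74 CPM at 22 weeks, against 4.73, 6.17 and 8.41 CPM at 4 weeks, a fall of 1.60 (SE 0.31, adjusted p = 0.00249). The ages did not overlap in any of these genes. In BPN/3J the levels were 12.3 ± 0.637 CPM for Slc7a6, 12.3 ± 0.396 for Slc7a7 and 1.94 ± 0.791 for Slc7a8, and the line difference at 22 weeks did not pass the test (adjusted p = 0.632, 0.246 and 0.791).

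Slc7a11, the cystine and glutamate exchanger whose promoter holds C/EBP-ATF matches on both strands, went the other way with age. It stood at 1.52, 0.772 and 1.68 CPM in 22-week BPH/2J, 0.457, 0.724 and 0.614 CPM in 4-week BPH/2J and 1.69, 1.56 and 2.32 CPM in BPN/3J. The ages did not overlap, and Slc7a11 was 2.21-fold higher at 22 weeks (log2 1.14 ± 0.33, adjusted p = 0.0194), a call resting on 339 counts over the 9 libraries. Without replicate 1 or 3 of 22-week BPH/2J, or without replicate 3 of 4-week BPH/2J, the adjusted p of Slc7a11 was 0.0665, 0.0767 and 0.0529. Slc3a1, the heavy chain of the kidney cystine transporter, stayed between 0.371 and 0.730 CPM in the 9 libraries.

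Set side by side per kilobase, the heavy chain was higher and the sum of the light chains lower at 22 than at 4 weeks in BPH/2J. Slc3a2 averaged 58.2 ± 3.81 CPM per kb in 22-week BPH/2J, 35.7 ± 2.85 in 4-week BPH/2J and 71.6 ± 3.33 in BPN/3J. The sum of Slc7a5, Slc7a6, Slc7a7, Slc7a8 and Slc7a11 averaged 12.9 ± 1.23 CPM per kb in 22-week BPH/2J, 23.9 ± 1.46 in 4-week BPH/2J and 11.3 ± 0.573 in BPN/3J. The ages did not overlap in this sum, while the 22-week lines did. The ratio of heavy chain to light-chain sum was 5.18, 3.94 and 4.55 in the 22-week BPH/2J libraries, 1.67, 1.36 and 1.47 in the 4-week BPH/2J libraries and 6.05, 6.79 and 6.16 in the BPN/3J libraries. The heavy chain transcript thus exceeded the summed light chains in all 9 libraries, by least at 4 weeks.

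**Figure D3:**
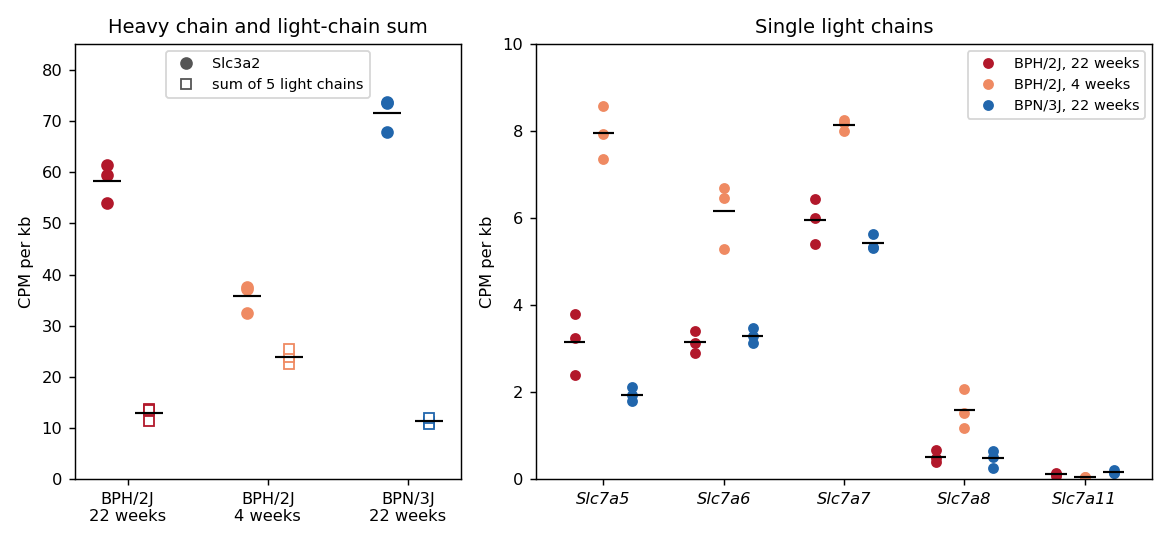
Left, Slc3a2 (filled) and the sum of its 5 light chains (open) in CPM per kb for each library; right, each light chain in CPM per kb, with points for libraries and black lines for group means (n = 3). Slc3a2 is lowest and the light-chain sum highest in 4-week BPH/2J, and Slc7a5, Slc7a6 and Slc7a7 carry most of that sum.

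Among the cationic transporters, Slc7a1 was the most abundant per kilobase, at 8.67 CPM per kb over the 9 libraries. Slc7a1, the arginine and lysine carrier CAT-1 that supplies endothelial nitric oxide synthase, stood at 50.3, 56.7 and 51.3 CPM in 22-week BPH/2J, 90.1, 93.9 and 90.9 CPM in 4-week BPH/2J and 52.1, 51.0 and 51.0 CPM in BPN/3J. It fell by 0.80 on the log2 scale at 22 weeks against 4 weeks (SE 0.06, adjusted p = 1.4e-05), with no overlap of the ages. The 22-week lines overlapped, with a log2 difference of 0.04 ± 0.06 (adjusted p = 0.627). Slc7a2, the inducible relative CAT-2, averaged 4.19 ± 1.66 CPM in 22-week BPH/2J and 2.09 ± 0.399 CPM in 4-week BPH/2J, a log2 difference of 1.00 ± 0.30 (adjusted p = 0.0201), but these groups overlapped. The call on Slc7a2 was lost without replicate 1 or 3 of 22-week BPH/2J and without replicate 2 or 3 of 4-week BPH/2J (adjusted p = 0.0526, 0.0866, 0.0550 and 0.0751). Slc7a3, a cationic carrier best known from brain, and Slc7a14, a lysosomal member, passed in no comparison, and Slc7a4, with 49 counts in all, was not tested.

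Of the Slc43 family, Slc43a1 had the largest fall with age of all 52 genes. Slc43a1, the leucine uniporter LAT3, stood at 1.17, 1.54 and 1.39 CPM in 22-week BPH/2J, 6.23, 6.38 and 8.50 CPM in 4-week BPH/2J and 1.82, 1.18 and 2.49 CPM in BPN/3J. The ages did not overlap, and the level was 5.14-fold lower at 22 weeks (log2 -2.36 ± 0.25, adjusted p = 6.2e-05), while the 22-week lines overlapped (log2 -0.42 ± 0.27, adjusted p = 0.245). Slc43a2, the related uniporter LAT4, stood at 15.2, 17.7 and 18.7 CPM at 22 weeks, against 23.9, 24.3 and 25.9 CPM at 4 weeks, and fell by 0.52 (SE 0.10, adjusted p = 0.00247). In BPN/3J it averaged 17.9 ± 2.02 CPM, overlapping 22-week BPH/2J.

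Slc43a3, the nucleobase carrier, differed between lines. It stood at 613, 575 and 464 CPM in 22-week BPH/2J, 346, 525 and 480 CPM in 4-week BPH/2J and 771, 772 and 752 CPM in BPN/3J. The BPN/3J libraries all lay above those of 22-week BPH/2J, and the difference was 1.39-fold (log2 -0.47 ± 0.14, adjusted p = 0.0254). That call was lost without replicate 3 of 22-week BPH/2J (log2 -0.36, adjusted p = 0.105) and without replicate 1, 2 or 3 of BPN/3J (adjusted p = 0.0601, 0.0650 and 0.0587). The ages overlapped (log2 0.29 ± 0.14, adjusted p = 0.131).

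The Slc1 family carries acidic amino acids through some members and neutral ones through others, and of these the acidic carrier Slc1a1 was higher and both neutral carriers were lower at 22 than at 4 weeks. Slc1a1, the glutamate, aspartate and cysteine transporter EAAC1, stood at 54.8, 49.9 and 56.0 CPM in 22-week BPH/2J, 20.0, 17.4 and 15.7 CPM in 4-week BPH/2J and 56.8, 66.0 and 60.8 CPM in BPN/3J. It was 3.02-fold higher at 22 weeks (log2 1.59 ± 0.10, adjusted p = 7.8e-06), with a wide gap between the ages. The 22-week lines were also separate, but by less, and the difference did not pass the test (log2 -0.19 ± 0.09, adjusted p = 0.117). In the mouse annotation 31.9% of the exon bases of Slc1a1 lie opposite the gene 4430402I18Rik, which averaged 2.71 CPM in 22-week BPH/2J, 1.09 in 4-week BPH/2J and 1.64 in BPN/3J. The use of strand in the counting is not given in the sources used here.

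Slc1a5 and Slc1a4, the neutral amino acid carriers ASCT2 and ASCT1, were lower at 22 weeks. Slc1a5, a main route of glutamine into cells, stood at 29.6, 33.1 and 36.7 CPM in 22-week BPH/2J, 67.7, 68.6 and 72.5 CPM in 4-week BPH/2J and 48.0, 50.2 and 60.9 CPM in BPN/3J. Its 3 groups did not overlap. Slc1a5 fell by 1.07 against 4 weeks (SE 0.10, adjusted p = 3.5e-05) and by 0.68 against BPN/3J (SE 0.10, adjusted p = 5.3e-04). Slc1a4, which also carries serine and has the C/EBP-ATF match at its start, averaged 1.08 ± 0.112 CPM in 22-week BPH/2J, 4.61 ± 0.997 in 4-week BPH/2J and 1.28 ± 0.322 in BPN/3J. The age difference in Slc1a4 was 4.27-fold (log2 -2.09 ± 0.23, adjusted p = 8.7e-05), and the line difference did not pass the test (adjusted p = 0.475). The glutamate transporters of glia were near the floor: Slc1a3 lay between 0.172 and 1.04 CPM and passed in no comparison, and Slc1a2, with 37 counts in all, was not tested.

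In the Slc38 family, the member most abundant per kilobase was lower in 22-week BPH/2J than in both other groups. Slc38a2, the small neutral amino acid carrier SNAT2 whose expression is known to respond to amino acid supply, stood at 248, 252 and 274 CPM in 22-week BPH/2J, 335, 344 and 308 CPM in 4-week BPH/2J and 418, 516 and 562 CPM in BPN/3J. The 3 groups did not overlap. Slc38a2 was 1.93-fold lower in 22-week BPH/2J than in BPN/3J (log2 -0.95 ± 0.10, adjusted p = 6.6e-05), the largest called fall among the transporter genes in that comparison. Against 4 weeks it fell by 0.35 (SE 0.10, adjusted p = 0.0189), a call lost without replicate 1 or 2 of 22-week BPH/2J or replicate 2 of 4-week BPH/2J (adjusted p of Slc38a2 0.0767, 0.0604 and 0.0594).

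Slc38a3, a glutamine carrier of liver and kidney, stood at 2.01, 4.22 and 3.09 CPM in 22-week BPH/2J, 9.49, 6.72 and 7.55 CPM in 4-week BPH/2J and 5.64, 6.46 and 5.12 CPM in BPN/3J. It was lower in 22-week BPH/2J in both comparisons, by 1.35 against 4 weeks (SE 0.24, adjusted p = 0.00132) and by 0.88 against BPN/3J (SE 0.24, adjusted p = 0.0149; without replicate 2 of BPN/3J the adjusted p of Slc38a3 was 0.0540). Slc38a6, a little characterised member, was higher in BPH/2J, with 219, 243 and 217 CPM at 22 weeks, against 143, 142 and 166 CPM in BPN/3J (log2 0.59 ± 0.09, adjusted p = 7.7e-04). Its 4-week level was 196 ± 21.8 CPM, and the age difference in Slc38a6 did not pass the test (adjusted p = 0.100). Without replicate 1 of 4-week BPH/2J that age difference passed, at log2 0.28 and adjusted p = 0.0261.

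Slc38a10, another little characterised member, stood at 188, 200 and 198 CPM in 22-week BPH/2J and 169, 170 and 164 CPM in BPN/3J. These groups were separate, but the 1.16-fold difference (log2 0.22 ± 0.07, adjusted p = 0.0252) was lost without replicate 2 or 3 of 22-week BPH/2J (adjusted p of Slc38a10 0.0734 and 0.0693) and without replicate 1, 2 or 3 of BPN/3J (0.0582, 0.0551 and 0.0738). At 4 weeks BPH/2J stood at 193, 168 and 166 CPM, overlapping both other groups, and without replicate 1 of them the age difference of Slc38a10 passed (log2 0.23, adjusted p = 0.00465). Slc38a9, the lysosomal arginine sensor upstream of mTORC1, and Slc38a7, a lysosomal glutamine carrier, varied little, at 14.2 to 16.2 and 20.4 to 26.1 CPM over the 9 libraries. Neither passed in any comparison. Slc38a1 and Slc38a4 likewise passed in none. Slc38a11 was called in the third comparison below, and Slc38a5, with 23 counts in all, was not tested.

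In the Slc6 and Slc36 families, sodium-coupled and proton-coupled carriers of other small solutes, 1 gene of each was called between the lines. Slc6a6, the taurine transporter, stood at 1036, 976 and 953 CPM in 22-week BPH/2J, 623, 832 and 801 CPM in 4-week BPH/2J and 576, 520 and 519 CPM in BPN/3J. No group overlapped another. Slc6a6 was 1.84-fold higher in 22-week BPH/2J than in BPN/3J (log2 0.88 ± 0.11, adjusted p = 1.4e-04) and 1.31-fold higher than at 4 weeks (log2 0.39 ± 0.11, adjusted p = 0.0126). Slc36a4, a high affinity proline and tryptophan carrier, was slightly higher in 22-week BPH/2J. It stood at 65.6, 62.5 and 59.8 CPM in 22-week BPH/2J, 59.0, 51.5 and 49.0 CPM in 4-week BPH/2J and 52.4, 51.0 and 52.1 CPM in BPN/3J. The log2 differences of Slc36a4 were 0.27 ± 0.07 against BPN/3J (adjusted p = 0.0139) and 0.24 ± 0.07 against 4 weeks (adjusted p = 0.0246). The line call on Slc36a4 had an adjusted p of 0.05002, just above the threshold, without replicate 1 of 22-week BPH/2J. The age call was lost without that library and without replicate 2 or 3 of 4-week BPH/2J (adjusted p of Slc36a4 0.0820, 0.0820 and 0.0930).

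Other members of these families did not pass in the first 2 comparisons. Slc6a8, the creatine transporter, lay between 49.8 and 56.0 CPM in the 9 libraries, with a log2 line difference of -0.05 ± 0.05 and an age difference of -0.07 ± 0.05. Slc6a9, the glycine transporter GlyT1, averaged 3.71 ± 0.447 CPM in 22-week BPH/2J, 2.62 ± 0.583 in 4-week BPH/2J and 3.31 ± 0.299 in BPN/3J, and its ages did not overlap (log2 0.50, adjusted p = 0.0560). Slc6a9, Slc6a4, the serotonin transporter, and Slc6a17, a neutral amino acid carrier of synaptic vesicles, passed in no comparison. Slc36a1, a lysosomal proton-coupled carrier, was called in the third comparison below. Slc6a20b and Slc36a2, with 35 and 31 counts in all, were not tested.

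The peptide and histidine carriers of endosomes and lysosomes were lower at 22 weeks, by small amounts. Slc15a3 stood at 17.8, 20.5 and 20.1 CPM in 22-week BPH/2J, 21.4, 28.6 and 28.1 CPM in 4-week BPH/2J and 17.9, 14.7 and 14.8 CPM in BPN/3J. It fell by 0.42 against 4 weeks (SE 0.12, adjusted p = 0.0199), and the call was lost without replicate 1 of 22-week BPH/2J or replicate 2 or 3 of 4-week BPH/2J (adjusted p of Slc15a3 0.0863, 0.0743 and 0.0827). Against BPN/3J the log2 difference of Slc15a3 was 0.30 ± 0.13 (adjusted p = 0.0829), and it passed without replicate 1 of 4-week BPH/2J (adjusted p = 0.0201) or replicate 1 of BPN/3J (0.0458). In the annotation 28.1% of its exon bases lie opposite Tmem132a, which fell by 0.70 (SE 0.13, adjusted p = 0.00212) in the age comparison. Reads from these shared bases cannot be assigned to either gene without strand, and their part in the difference was not tested.

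Slc15a4 stood at 19.0, 20.1 and 19.1 CPM in 22-week BPH/2J, 19.4, 25.1 and 27.0 CPM in 4-week BPH/2J and 22.2, 22.7 and 23.1 CPM in BPN/3J. The ages overlapped, and the age difference of -0.30 ± 0.11 had an adjusted p of 0.0490. That call on Slc15a4 held without replicate 1 of 4-week BPH/2J and was lost without any other single library, with adjusted p from 0.0629 to 0.217. Slc15a2, the peptide transporter PEPT2, passed in no comparison. Slc15a3, Slc15a4 and Slc7a7 are also expressed in macrophages. Of 18 tested macrophage and monocyte markers, 14 were lower and 1 was higher at 22 weeks than at 4 weeks, and their part in these differences was not tested. Lymphocyte markers (7 of 12 tested) and endocardial markers (4 of 7) were higher at 22 weeks, with none lower, and their part was not tested either. Lymphocyte markers summed to 60.7 to 124 CPM in 22-week BPH/2J, against 44.1 to 67.3 CPM in 4-week BPH/2J, and endocardial markers to 342 to 635 CPM in 22-week BPH/2J, against 199 to 246 CPM in 4-week BPH/2J. In bulk samples, fewer cells of a type and less RNA per cell cannot be told apart.

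Among the Slc16 genes, several differed between the lines. Slc16a13, a little characterised member, stood at 25.8, 30.2 and 26.5 CPM in 22-week BPH/2J, 31.7, 33.6 and 29.1 CPM in 4-week BPH/2J and 20.5, 18.5 and 21.8 CPM in BPN/3J. Both BPH/2J groups were above BPN/3J, and the 22-week difference was 1.36-fold (log2 0.44 ± 0.09, adjusted p = 0.00359).

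Slc16a1, the lactate and pyruvate carrier MCT1, was lower in 22-week BPH/2J. It stood at 11.1, 9.30 and 11.2 CPM in 22-week BPH/2J, 15.8, 11.7 and 13.1 CPM in 4-week BPH/2J and 16.0, 17.5 and 15.4 CPM in BPN/3J. Against BPN/3J it fell by 0.63 (SE 0.13, adjusted p = 0.0031), with no overlap. Against 4 weeks it fell by 0.36 (SE 0.13, adjusted p = 0.0426), also without overlap, but the call on Slc16a1 held only without replicate 2 of 4-week BPH/2J and was lost without any other single library, with adjusted p from 0.0523 to 0.143. Basigin (Bsg), the chaperone that MCT1 needs at the cell surface, averaged 316 ± 29.3 CPM in 22-week BPH/2J, 232 ± 14.5 in 4-week BPH/2J and 261 ± 17.9 in BPN/3J. Bsg rose against both 4 weeks (log2 0.45 ± 0.08, adjusted p = 0.00197) and BPN/3J (log2 0.28 ± 0.08, adjusted p = 0.0248). Embigin (Emb), the other chaperone of this family, averaged 5.81 ± 0.865 CPM in 22-week BPH/2J, 3.45 ± 0.730 in 4-week BPH/2J and 8.55 ± 1.35 in BPN/3J, higher than at 4 weeks (adjusted p = 0.0102) and lower than in BPN/3J (adjusted p = 0.0347).

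Slc16a4 and Slc16a6 moved in opposite directions with age. Slc16a4, whose substrate is not settled, stood at 9.02, 9.81 and 10.1 CPM at 22 weeks, against 6.59, 6.03 and 6.45 CPM at 4 weeks in BPH/2J, and rose by 0.60 on the log2 scale (SE 0.12, adjusted p = 0.00327). BPN/3J lay between, at 8.01 ± 1.19 CPM, and the line difference of Slc16a4 passed only without replicate 3 of BPN/3J (log2 0.39, adjusted p = 0.0316). Slc16a6, a ketone body carrier in zebrafish liver, stood at 5.42, 5.95 and 6.93 CPM at 22 weeks, against 7.44, 9.89 and 9.85 CPM at 4 weeks, and fell by 0.57 (SE 0.14, adjusted p = 0.00861). It averaged 7.56 ± 0.322 CPM in BPN/3J, and without replicate 1 of 4-week BPH/2J the line difference of Slc16a6 passed too (log2 -0.31, adjusted p = 0.0473). In the annotation 21.5% of the exon bases of Slc16a6 lie opposite Amz2, which did not pass the test with age (log2 0.02 ± 0.06, adjusted p = 0.794).

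Low-level members of the family held the largest rise with age. Slc16a5 averaged 1.39 ± 0.373 CPM in 22-week BPH/2J, 0.330 ± 0.127 in 4-week BPH/2J and 0.609 ± 0.106 in BPN/3J, 212 counts in all. It was 4.21-fold higher than at 4 weeks (log2 2.07 ± 0.33, adjusted p = 7.5e-04) and 2.27-fold higher than in BPN/3J (log2 1.18 ± 0.30, adjusted p = 0.0113), and the line call on Slc16a5 had an adjusted p of 0.0503 without replicate 1 of 22-week BPH/2J. Slc16a9, a carnitine carrier, was 2.57-fold higher at 22 than at 4 weeks (0.979 ± 0.166 CPM at 22 weeks against 0.378 ± 0.128 CPM at 4 weeks, adjusted p = 0.0206). Slc16a10, the aromatic amino acid and thyroid hormone carrier TAT1, was 1.53-fold lower (1.18 ± 0.0698 CPM at 22 weeks against 1.82 ± 0.302 CPM at 4 weeks, adjusted p = 0.0271). The age call on Slc16a9 was lost without replicate 1 of 22-week BPH/2J or replicate 2 or 3 of 4-week BPH/2J (adjusted p = 0.0681, 0.0726 and 0.0698). The call on Slc16a10 was lost without any of the 22-week BPH/2J libraries or without replicate 1 or 3 of 4-week BPH/2J, with adjusted p from 0.0582 to 0.0912. Slc16a3, the lactate exporter MCT4, lay between 4.99 and 6.31 CPM and passed in no comparison, as did Slc16a7, Slc16a8, Slc16a11 and Slc16a12. Slc16a14, with 54 counts in all, was not tested.

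**Figure D4:**
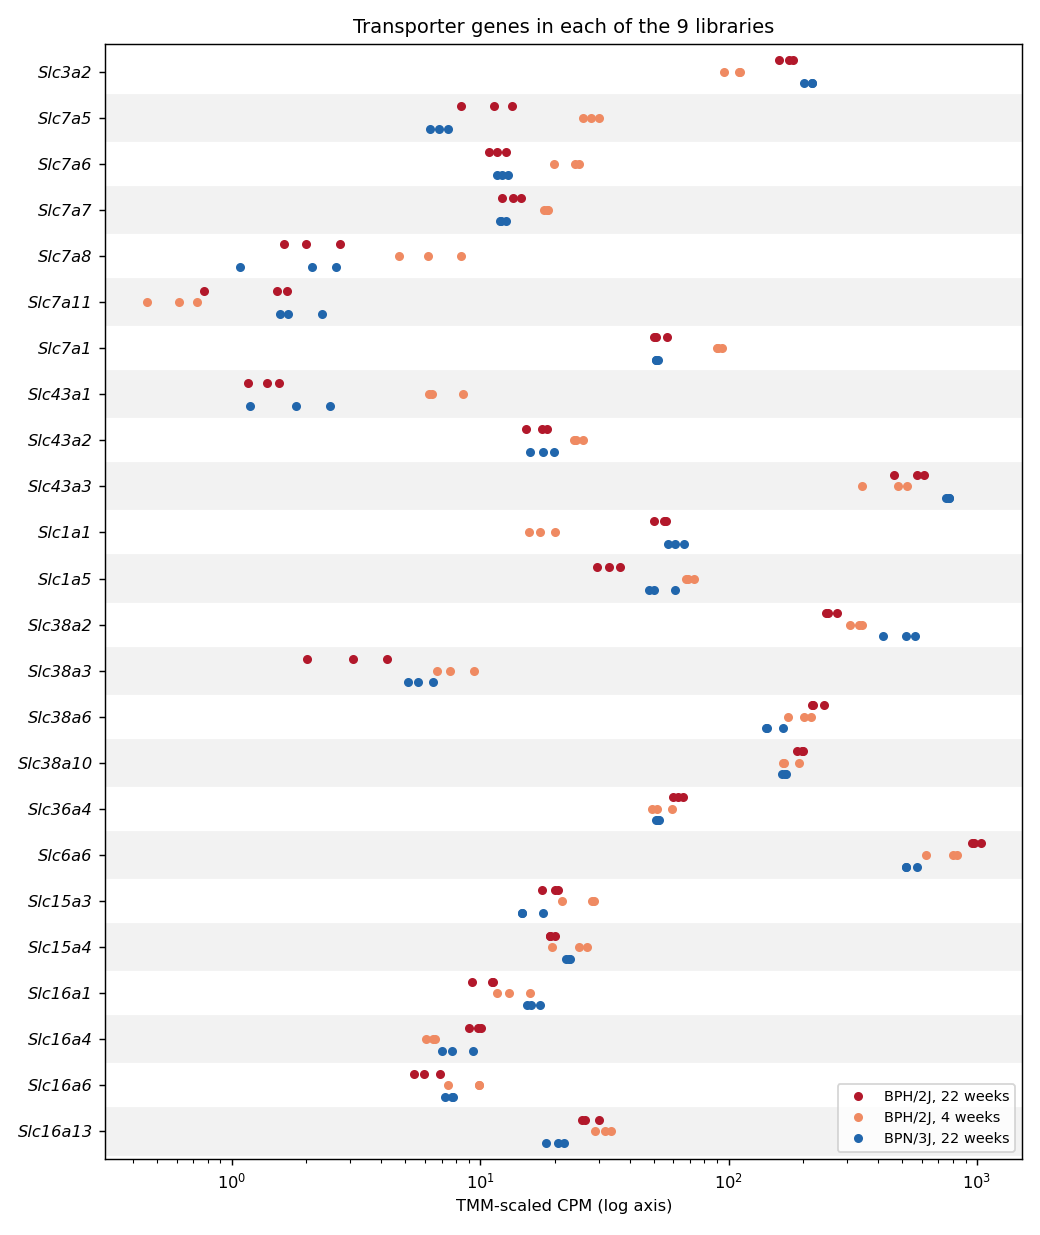
TMM-scaled CPM (log axis) of the 24 genes given library by library, 1 point per library, with 22-week BPH/2J above 4-week BPH/2J and BPN/3J in each band. Slc1a1 and Slc43a1 show the widest gaps between the ages of BPH/2J, and the 22-week BPH/2J libraries of Slc6a6, at 953 to 1036 CPM, lie above the 519 to 576 CPM of BPN/3J.

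Line and age change together in the third comparison, 4-week BPH/2J against 22-week BPN/3J. Of the 52 genes, 15 were higher and 9 lower in 4-week BPH/2J, or 46.2%, against 53.1% of all tested genes, of which 27.8% were higher and 25.3% lower. The groups did not overlap in 25 of the 52, against 59.2% of all tested genes. Slc7a5 (log2 2.03 ± 0.15, adjusted p = 2.8e-06), Slc43a1 (1.94 ± 0.24, adjusted p = 8.02e-05), Slc1a4 (1.85 ± 0.23) and Slc7a8 (1.73 ± 0.32) were more than 2-fold higher. Slc1a1 (log2 -1.79 ± 0.10, adjusted p = 3.1e-07), Slc7a11 (-1.63 ± 0.33), Slc16a9 (-1.20 ± 0.41) and Slc3a2 (-1.004 ± 0.08) were at least 2-fold lower. Slc36a1 was called higher (log2 0.19 ± 0.07, adjusted p = 0.0437), while Slc38a11 (-0.50 ± 0.18, adjusted p = 0.0417) and Slc7a6os (-0.20 ± 0.07, adjusted p = 0.0374) were called lower although their groups overlapped, as did those of Slc16a9. The calls on Slc36a1, Slc38a11, Slc7a6os, Slc16a9 and Slc16a4 in this comparison were each lost in 4 or more of the 9 fits that left out a library, with the highest adjusted p at 0.158 for Slc36a1 and 0.151 for Slc7a6os without replicate 2 of BPN/3J, 0.127 for Slc38a11 without replicate 2 of 4-week BPH/2J, and 0.145 for Slc16a9 and 0.168 for Slc16a4 without replicate 3 of BPN/3J. Slc36a1os passed in no comparison.

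Cardiomyocyte markers moved with the line. Of 22 tested, 14 were lower and none was higher in 22-week BPH/2J than in BPN/3J, while 3 were higher and 1 lower in the age comparison. The most abundant, Atp2a2, averaged 271 CPM in 22-week BPH/2J, 389 in 4-week BPH/2J and 373 in BPN/3J, and was the 1 marker lower with age. It did not follow most of the list in 4-week BPH/2J against BPN/3J. There 16 of the 22 markers were lower and none was higher, while Atp2a2 was not called (log2 0.06, adjusted p = 0.705). With the mean log2 CPM of these markers as a covariate, 4 transporter genes were called between the lines. Of these, 2 were among the 14 called without it (Slc43a3 among them), and 21 of the 25 age calls held. The 12 line calls lost included Slc6a6, Slc38a2, Slc1a5, Slc7a5, Slc38a6 and Slc16a13 (adjusted p = 0.354, 0.0925, 0.128, 0.392, 0.0675 and 0.553). The part of other cells in the transporter differences was not tested. Macrophage markers, of which 12 of 18 were lower in 22-week BPH/2J than in BPN/3J, moved with the line as well. Fibroblast markers summed to 834 to 945 CPM in 22-week BPH/2J and to 1323 to 1424 CPM in BPN/3J. Of 15 tested, 4 were lower and 3 higher in 22-week BPH/2J. For pericytes and smooth muscle the sums of the lines overlapped, and of 14 genes tested, 3 were lower while Rgs5 was higher. Red cell and platelet genes were lower in 5 of 10 cases.

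Genes that act on the same nutrients were read from 11 lists in the same fit, with counts to be set against the 38.0% and 41.0% of all tested genes called. Cytosolic aminoacyl-tRNA synthetases, which load amino acids onto tRNA, were called in 14 of 20 cases with age: 13 were lower and Qars was higher (log2 0.27 ± 0.06, adjusted p = 0.00724) at 22 than at 4 weeks. Gars averaged 74.0 ± 1.47 CPM at 22 weeks, against 115 ± 6.83 CPM at 4 weeks (log2 -0.63 ± 0.06), and Mars 30.1 ± 0.284 CPM at 22 weeks against 46.3 ± 1.00 CPM at 4 weeks (log2 -0.62 ± 0.07). Between the lines, 6 synthetases were higher in 22-week BPH/2J and none was lower, among them Yars (log2 0.53 ± 0.06) and Aars (log2 0.42 ± 0.07).

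Genes of the ATF4 response to amino acid shortage were mostly lower in 22-week BPH/2J where they were called. Of 27 tested, 12 were lower and 4 higher than in BPN/3J, with a median log2 difference of -0.38, and 13 were lower and 2 higher than at 4 weeks, with a median of -0.22. Atf4 itself averaged 204 ± 2.49 CPM in 22-week BPH/2J, 249 ± 19.0 in 4-week BPH/2J and 274 ± 13.5 in BPN/3J and was lower in both comparisons (adjusted p = 0.00638 against 4 weeks and 8.03e-04 against BPN/3J). Ddit4, a stress-induced inhibitor of mTORC1, averaged 238 ± 13.8 CPM in 22-week BPH/2J, 124 ± 22.0 in 4-week BPH/2J and 705 ± 48.0 in BPN/3J, so it was lower than in BPN/3J (log2 -1.57 ± 0.12) and higher than at 4 weeks (log2 0.94 ± 0.12). Trib3, a pseudokinase that restrains ATF4, was higher in both comparisons (log2 0.50 ± 0.07 against BPN/3J and 0.31 ± 0.07 against 4 weeks), and Shmt2 was higher than in BPN/3J and lower than at 4 weeks (log2 0.45 ± 0.08 and -0.38 ± 0.08).

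Serine and one-carbon enzymes, some of which are also in the ATF4 list, were lower with age in 9 and higher in 3 of 19 cases. Mthfd2, a mitochondrial folate enzyme, averaged 2.00 ± 0.204 CPM at 22 weeks, against 8.30 ± 1.09 CPM at 4 weeks (log2 -2.05 ± 0.15). Psat1 of serine synthesis averaged 5.58 ± 1.38 CPM at 22 weeks against 21.7 ± 5.23 CPM at 4 weeks (log2 -1.96 ± 0.21), and Tyms, which makes thymidylate, 13.2 ± 0.886 CPM at 22 weeks against 33.5 ± 1.87 CPM at 4 weeks (log2 -1.34 ± 0.08). Amt and Srr were higher with age (log2 0.61 ± 0.14 and 0.39 ± 0.12). Between the lines, 6 were higher and 4 lower. Gldc, the glycine decarboxylase, averaged 1.55 ± 0.263 CPM in 22-week BPH/2J, 0.808 ± 0.291 in 4-week BPH/2J and 0.0342 ± 0.0338 in BPN/3J, the last under the level of 3 counts. Gcsh was higher (log2 0.58 ± 0.10), and Amt and Mthfd1l were lower (log2 -0.67 ± 0.14 and -0.47 ± 0.11) than in BPN/3J.

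Arginine and polyamine enzymes, read because arginine is a substrate of Slc7a1, were lower with age in 10 and higher in 4 of 22 cases, and between the lines 10 were higher and 2 lower. Odc1, which opens polyamine synthesis, averaged 123 ± 16.2 CPM at 22 weeks, against 285 ± 32.7 CPM at 4 weeks (log2 -1.22 ± 0.11), whereas Ass1, which recycles citrulline to arginine, averaged 35.9 ± 5.97 CPM at 22 weeks against 14.9 ± 0.407 CPM at 4 weeks (log2 1.27 ± 0.11). Srm, spermidine synthase, averaged 14.0 ± 0.0108 CPM in 22-week BPH/2J, 25.1 ± 2.14 in 4-week BPH/2J and 7.21 ± 0.605 in BPN/3J, so it was lower with age (log2 -0.84 ± 0.09) and higher than in BPN/3J (log2 0.96 ± 0.10). Amd1 was higher than in BPN/3J (log2 0.85 ± 0.08), and the polyamine catabolic genes Sat1 and Smox were lower (log2 -0.62 ± 0.09 and -0.44 ± 0.08). Azin2 was higher than at 4 weeks (log2 2.05 ± 0.33), at 1.89 ± 0.210 CPM at 22 weeks against 0.453 ± 0.265 CPM at 4 weeks.

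Breakdown of branched-chain amino acids, substrates of Slc7a5 and the Slc43 uniporters, went the other way with age. Of 19 genes tested, 12 were higher and 1 was lower at 22 weeks, with a median log2 difference of 0.30 against 0.01 over all genes. Bckdha, a subunit of the committing dehydrogenase, averaged 51.8 ± 3.80 CPM at 22 weeks, against 28.2 ± 6.24 CPM at 4 weeks (log2 0.88 ± 0.13). Bcat1, the cytosolic transaminase, was the called gene that was lower (log2 -1.33 ± 0.32, adjusted p = 0.00735), at 0.248 ± 0.0384 CPM at 22 weeks against 0.626 ± 0.189 CPM at 4 weeks. Between the lines, 5 were higher and 3 lower, with Bckdk and Pccb higher (log2 0.51 ± 0.10 and 0.49 ± 0.12) and Ivd lower (log2 -1.01 ± 0.12).

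Lactate, pyruvate and ketone enzymes with the transporter chaperones were higher with age in 11 and lower in 3 of 25 cases. Ldha, which makes lactate from pyruvate, averaged 381 ± 10.6 CPM at 22 weeks, against 597 ± 62.9 CPM at 4 weeks (log2 -0.65 ± 0.08), while Pdk1 and Pdk2, which switch off pyruvate dehydrogenase, were higher (log2 1.14 ± 0.14 and 0.82 ± 0.11). Hif1a averaged 136 ± 8.39 CPM in 22-week BPH/2J, 161 ± 2.04 in 4-week BPH/2J and 92.4 ± 1.72 in BPN/3J, lower with age (log2 -0.25 ± 0.06) and higher than in BPN/3J (log2 0.56 ± 0.06). Between the lines, 5 genes were higher and 3 lower, among them Pdk1 (log2 0.63 ± 0.14) and Pdk4 (-0.64 ± 0.14).

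Genes of amino acid sensing by mTORC1 were mixed, with 8 higher and 6 lower of 37 between the lines and 8 higher and 3 lower with age. Gatsl3, which the current nomenclature calls Castor1, an arginine sensor, averaged 51.1 ± 4.24 CPM in 22-week BPH/2J, 33.5 ± 1.23 in 4-week BPH/2J and 94.0 ± 9.11 in BPN/3J. It was lower than in BPN/3J (log2 -0.88 ± 0.08) and higher than at 4 weeks (log2 0.61 ± 0.09). Flcn was lower and Lamtor1 and Akt1s1 were higher than in BPN/3J (log2 -0.43 ± 0.07, 0.75 ± 0.11 and 0.45 ± 0.06). Nprl3 was higher, and Gatsl2 and the leucine sensor Sesn2 were lower than at 4 weeks (log2 0.57 ± 0.08, -0.53 ± 0.11 and -0.45 ± 0.12).

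Thyroid hormone genes, a list read because Slc7a5 and Slc16a10 also carry that hormone, were called in 8 of 14 cases between the lines, 3 higher and 5 lower. Thra, the main thyroid hormone receptor of heart, was higher in 22-week BPH/2J (log2 0.44 ± 0.07), as was the hormone carrier Slco1a4 (log2 1.23 ± 0.25). Klf9, a hormone-responsive transcription factor that also answers to glucocorticoids, averaged 185 ± 11.0 CPM in 22-week BPH/2J, 138 ± 23.1 in 4-week BPH/2J and 277 ± 12.8 in BPN/3J, and Slco2b1 was lower than in BPN/3J (log2 -0.58 ± 0.11). With age, 3 were higher and none was lower at an adjusted p under 0.05. Thrsp (log2 1.23 ± 0.16) and Thrb (1.17 ± 0.25) were among them.

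The 3 remaining lists held fewer one-sided counts. Glutamine, glutamate and aspartate enzymes were higher in 6 and lower in 5 of 17 cases between the lines, with Cad and Aldh5a1 higher (log2 0.56 ± 0.08 and 0.55 ± 0.11) and Got1 and Gad1 lower (-0.56 ± 0.08 and -2.59 ± 0.38). With age 3 were higher and 6 lower, with Aldh5a1 and Aspa higher (log2 1.63 ± 0.12 and 2.30 ± 0.22) and Ppat and Asns lower (-0.53 ± 0.07 and -0.62 ± 0.13). Genes of cystine use and NRF2 targets, read for Slc7a11, were higher in 6 and lower in 3 of 19 cases with age and higher in 2 and lower in 2 between the lines. Srxn1 was higher in both comparisons (log2 0.78 ± 0.10 against 4 weeks and 0.59 ± 0.10 against BPN/3J), as was Gpx4 against BPN/3J (0.33 ± 0.08). Oplah was higher and Txnrd1 and Chac2 were lower than at 4 weeks (log2 0.58 ± 0.08, -0.28 ± 0.06 and -0.49 ± 0.14), and Nfe2l2 and Chac1 were lower than in BPN/3J (-0.20 ± 0.07 and -0.74 ± 0.22). The list of amino acid transporters of other families also held Slc44a1 and Slc44a2, which are choline transporter-like genes and not amino acid carriers. Genes of this list were higher in 6 and lower in 4 of 19 cases with age. Slc25a12 and Slc44a1 were higher (log2 0.32 ± 0.06 and 0.29 ± 0.05) and Slc25a13 and Mfsd12 lower (-0.62 ± 0.12 and -0.47 ± 0.11). Between the lines 5 were higher and 3 lower, with Slc44a2 and Slc25a12 higher (log2 0.26 ± 0.06 and 0.22 ± 0.06) and Slc17a7 and Slc25a38 lower (-2.27 ± 0.38 and -0.67 ± 0.13).

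**Figure D5:**
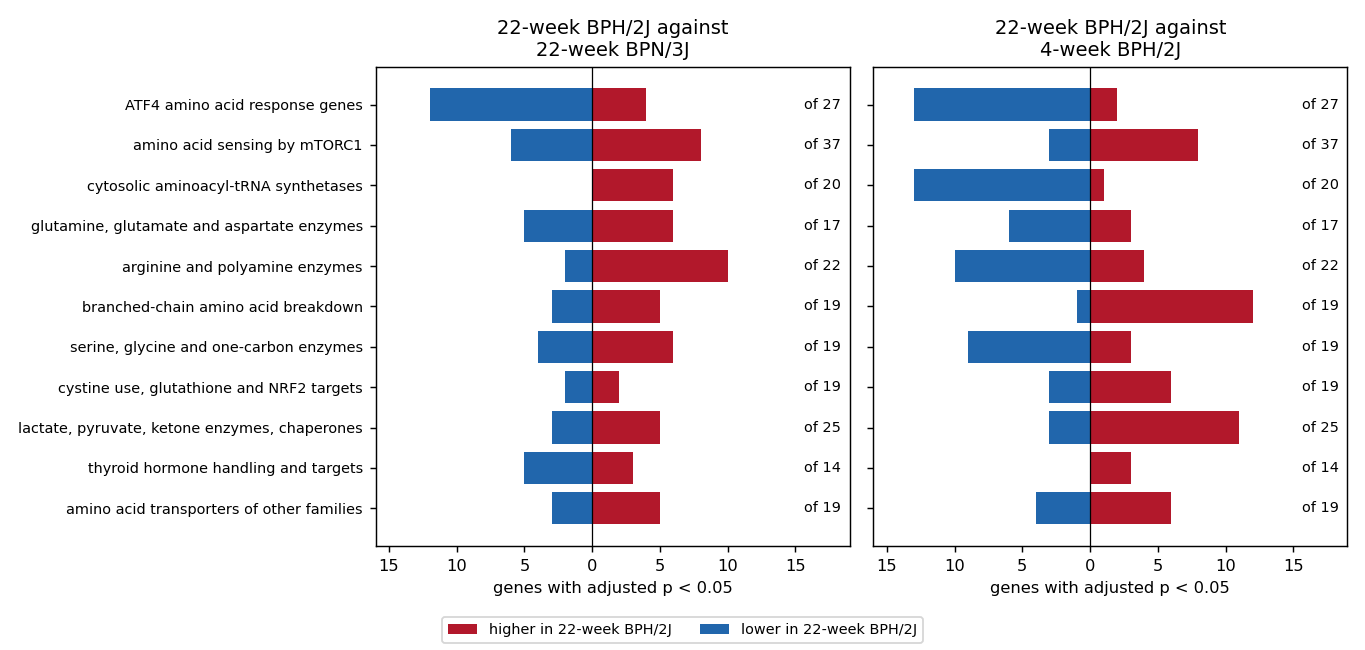
Number of genes in each of the 11 lists with an adjusted p under 0.05, higher (right of 0) or lower (left of 0) in 22-week BPH/2J, against 22-week BPN/3J in the left panel and against 4-week BPH/2J in the right panel, with the number tested beside each bar. With age, tRNA synthetases have 13 lower and 1 higher, and branched-chain amino acid breakdown has 12 higher and 1 lower.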

How the data were processed

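The data were 9 libraries of polyA RNA from mouse cardiac endothelium, read with 100-cycle single reads, per the labels. Build mm9 and the tools TopHat2 2.0.13, Bowtie2, CASAVA 1.8.2, FastQC, Subread, featureCounts and edgeR stand in the submitters' processing notes. Their roles, the annotation release and the strand setting are not given in the sources used here. As deposited by the authors, the table holds raw counts per gene, and its deposited CPM values equal each count over its column total, within 5e-04 CPM. A further deposited column gives gene length in bases. Of the symbols, 21 had become calendar dates and 854 were blank; Ensembl identifiers were used for them.

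Counts were filtered with filterByExpr (15277 genes kept) and scaled by TMM; printed CPM carry this scaling. The 3 groups shared a quasi-likelihood fit of all libraries in edgeR 4.0.16 (R 4.3.3, legacy setting), with two-sided tests, Benjamini-Hochberg adjustment and a threshold of 0.05. Standard errors are the log2 difference over the square root of F. The fit was tested on simulated data with known changes. Between 28806840 and 32913813 counts per library set the precision. Library by library values are given for transporter genes called in either of the first 2 comparisons whose highest group averaged 5 CPM or more, plus 9 genes whatever their result; each list is shown by its called genes of smallest adjusted p, 2 per direction. Of the genes this rule takes, 3 are not reported here. The genes and lists were chosen with earlier results of these data known. Alternatives were median-of-ratios scaling, TMM without markers of other cells, no filter, keeping genes over 1 CPM in 3 libraries, the edgeR fit with the legacy setting off, DESeq2 1.42.0, fits on 2 groups, the replicate block, a cardiomyocyte covariate and leaving out each library. Promoters are RefSeq windows on GRCm38.p6, matched by symbol for 41 of the 58 genes; exon overlaps come from GENCODE M21, and no coordinates of mm9 were used.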

Additional observations from a re-analysis of the deposited data

How the results depend on the processing

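The counts of called genes kept within 1.5 times of those reported under every alternative apart from the cardiomyocyte covariate and, for transporter genes with age, the fit without replicate 1 of 22-week BPH/2J. With the covariate, 2288 genes and 4 transporter genes were called between 22-week BPH/2J and BPN/3J, and 1424 genes and 6 transporter genes between 4-week BPH/2J and BPN/3J. The covariate differs between the lines by itself, so a fall in calls does not tell line from cell content. Leaving out each library in turn gave 4362 to 7117 genes and 12 to 17 transporter genes in the line comparison, 4606 to 7383 and 16 to 28 in the age comparison, and 6968 to 8682 and 19 to 27 in the third.

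Replicate numbers did not pair the libraries: residual correlations of libraries with equal numbers ran from -0.203 to 0.103. With the replicate block, 14, 24 and 21 transporter genes and 5261, 5758 and 7723 genes were called in the 3 comparisons. The block ended the age calls on Slc15a4, Slc16a1 and Slc16a10 and, in the third comparison, those on Slc36a1, Slc16a4, Slc7a6os and Slc16a9.

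Of the values of single named genes, 1182 kept direction and call, 79 lost the call, 15 gained it and 20 changed sign, and the cause was not tested. With the covariate, the line difference (log2) became 0.10 in Slc3a2, -0.035 in Slc7a7, -0.999 in Slc7a8, -0.15 in Slc7a1, 0.33 in Slc1a1, -0.51 in Slc15a3 and 0.11 in Slc16a1. In 4-week BPH/2J against BPN/3J it became -0.23 in Slc6a6, -0.25 in Slc15a3, -0.59 in Slc15a4, 0.59 in Slc16a1 and -0.45 in Slc16a6. Small differences turned without single libraries. Over these fits the line difference ran from -0.16 to 0.41 in Slc7a8 (below 0 without replicate 3 of 22-week BPH/2J or 2 of BPN/3J), from -0.012 to 0.077 in Slc7a1 (below 0 without replicate 2 of 22-week BPH/2J) and from -0.13 to 0.030 in Slc43a2 (above 0 without replicate 1 of 22-week BPH/2J or 3 of BPN/3J). In the third comparison the difference ran from -0.0058 to 0.10 in Slc38a10 and from -0.044 to 0.090 in Slc36a4 (below 0 without replicate 1 of 4-week BPH/2J) and from -0.030 to 0.20 in Slc15a4 (below 0 without its replicate 3). Other scalings moved the median of all genes by at most 0.012 (log2). Depth limits the genes under about 1 CPM, among them the 6 not tested.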
